A study of Mus musculus with 4 samples.

Results

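The genes for the CCN proteins, for the coactivators Yap1 and Wwtr1 (Taz) and for their partners in the Hippo pathway were followed across RNA sequencing (RNA-seq) libraries of mouse mammary tumor cell lines. The 10 genes were taken by name: the CCN genes Ctgf, Cyr61, Nov, Wisp1 and Wisp2, the coactivators Yap1 and Wwtr1, the DNA-binding factor Tead1, the kinase Lats2 and the target gene Ankrd1. All 10 were found among the 21090 genes of the deposited table. The rule is the list of names and sets no threshold on a measured value. The list was drawn up with earlier results of these data known. Counts of its genes set against all tested genes are therefore descriptions and not independent evidence.

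By the study's account, the lines were grown from a metastatic mammary tumor of a mouse on the C57BL/6 background. The mouse carried an activating Pik3ca allele, a dominant-negative Trp53 allele and Cre recombinase driven by the MMTV promoter. Every line shares these alleles if all came from that tumor, which the title of the exon 2 knockout leaves unsure. Controls were the parental line and a vector control line, and knockouts were lines edited in exon 3 or in exon 2 of S100a4 (n = 2 lines a group, 1 library each). The knockout lines were made with lentivirus carrying Cas9, a guide RNA and puromycin resistance, selected on puromycin, and the study describes no cloning of single cells. Its text does not state what the vector control received, nor that the parental line was infected or selected. Against the parental line, infection and selection therefore cannot be told apart from the edit. The sample titles name the cell line 308 for the exon 2 knockout and 307 for the other libraries, whereas the study mentions only 1 parental line, so a difference of starting line cannot be told apart from the edit in any value of the exon 2 knockout. Below, values of the libraries are given in the order parental line, vector control, exon 3 knockout and exon 2 knockout.

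Levels are RPKM as deposited by the authors, that is, reads divided by the length of a gene and by the size of a library. Whole reads were worked out from them, and by these between 14620321 and 20399072 reads fell in genes of each library. An annotated length was used for 8582 of the 15405 genes above 0. For the others the length was inferred, so the totals rest on these lengths too. S100a4 itself was at 3576, 4741, 1136 and 1105 RPKM. Of 6 epithelial markers, 2 (Krt8 and Krt18) had a mean of at least 1 RPKM, while Epcam reached at most 0.657 and Cdh1 at most 0.252 RPKM and 5 of 6 mesenchymal markers passed that level. The summed RPKM of the mesenchymal markers was highest in the parental line (4579.8) and between 2191 and 2436 in the other libraries, and that of the epithelial markers was lowest in the vector control (34.3 against 74.8 to 129.8). Endothelial markers summed to at most 0.433 RPKM. Of 4 immune markers listed, Adgre1 was not found under that name, so its level is not known. Among the others only Cd68, a macrophage marker, had a mean of at least 1 RPKM. Cd68 was higher in both knockouts, at 4.92, 3.36, 11.5 and 13.2 RPKM, with Ptprc and Cd3e at or near 0 in every library, and its part in the results was not tested.

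CCN proteins are secreted proteins of the extracellular matrix that bind integrins, proteoglycans and growth factors. Cyr61 and Ctgf are widely used reporters of Yap1 and Wwtr1 activity. When the Hippo kinases are active, Lats kinases phosphorylate Yap1 and Wwtr1 and hold them outside the nucleus. When they are inactive, both coactivators enter the nucleus and bind Tead factors, which recognise a short DNA motif. Lats2 and Ankrd1 are targets of the same pair, so Lats2 is at once a kinase that restrains the pathway and one of its outputs. RNA levels do not show where a protein is or whether it is phosphorylated.

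Sequence near the start sites is shown because Tead factors recognise a motif there. RefSeq promoter windows (GRCm38.p6, from 250 bases before to 50 bases after a start site) were matched for 5 of the 10 genes, Cyr61, Yap1, Wwtr1, Lats2 and Ankrd1, and cover 7 windows. Ctgf, Nov, Wisp1, Wisp2 and Tead1 were not matched. These 5 genes all lie on the plus strand and the matched genes all on the minus strand. The missing windows therefore go with the strand and say nothing about the motif in these genes, and the reason was not tested. The Tead motif GGAATG, or CATTCC on the other strand, stood in 6 of these 7 windows and in a window of each of the 5 genes. Of the 32817 windows searched, 14.7% held it. Those windows are not those of all genes, since a chromosome was left out and some genes had no window. The share is counted per window and not per gene, and the difference was not tested. The 2 windows of Wwtr1 overlap and share a match, and the match of Lats2 lies just after its start site. The stretches of 30 bases below read along the gene's strand, which is the minus strand in each case, with the motif in capitals.
Cyr61 at chr3:145650071-145650100: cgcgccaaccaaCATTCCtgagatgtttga
Yap1 at chr9:8004720-8004749: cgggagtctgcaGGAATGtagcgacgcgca
Wwtr1 at chr3:57576029-57576058: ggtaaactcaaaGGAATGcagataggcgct
Ankrd1, far match, at chr19:36120037-36120066: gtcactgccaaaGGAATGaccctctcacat
Ankrd1, near match, at chr19:36119950-36119979: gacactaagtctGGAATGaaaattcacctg
In Cyr61 the motif begins 103 bases before the RefSeq start site and in Yap1 141 bases before it, and Ankrd1 carries it at 210 and at 123 bases. GENCODE places Ankrd1 from 36111961 to 36120099, so by that annotation both Ankrd1 matches lie inside the gene and not before its start. A match describes these letters only and does not show that a Tead factor binds there.

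The genes were first set in order of level. Per length, Cyr61 was the most abundant of the 10 in every library, from 244 to 391 RPKM, and ranked between 157 and 338 among all genes. Ctgf, Wwtr1, Yap1 and Ankrd1 lay between 50 and 149 RPKM, except Ctgf in the vector control. Wisp1, Tead1 and Lats2 lay between 5.98 and 33.7 RPKM. Nov and Wisp2 were near the limit of detection, with at most 35 reads in any library, and did not reach the mean of 1 RPKM that the test required. The other 8 genes were tested.

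**Figure D1:**
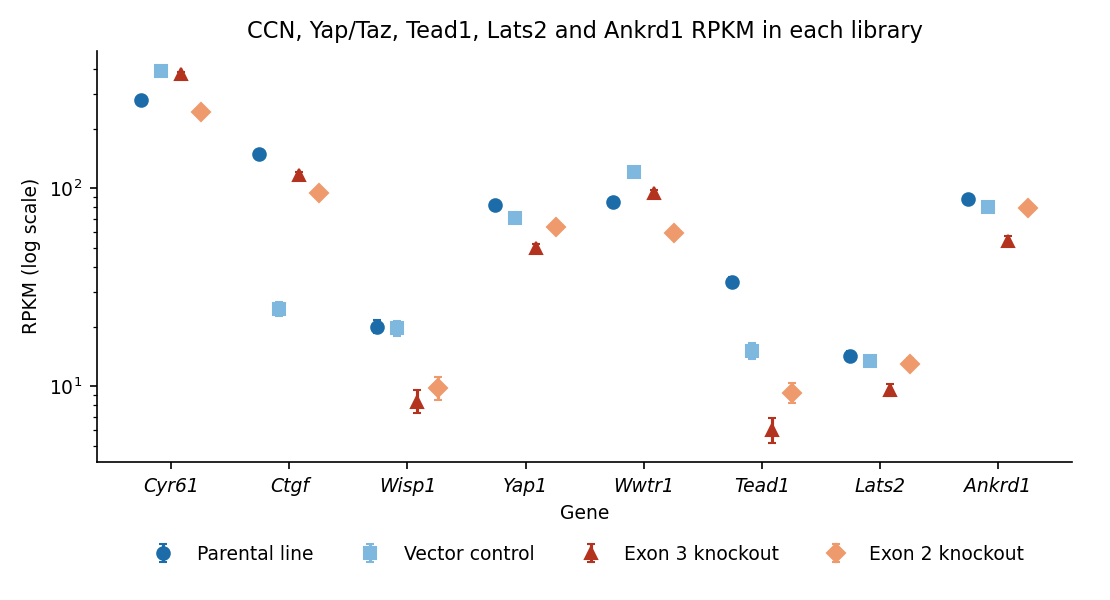
RPKM (log scale) of the 8 tested genes in each of the 4 libraries, with bars for the 95% Poisson interval of the reads, which covers counting error only. Ctgf is at 24.6 in the vector control against 94.5 to 149 in the other libraries, and Wisp1 and Tead1 are lower in both knockouts than in both controls.

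To ask whether loss of S100a4 went with other levels of these genes, both knockouts were compared with both controls by limma on log2(RPKM + 1), with p-values adjusted over all 10871 genes whose mean was at least 1 RPKM. A difference on this scale understates the fold of low genes. None of the 8 tested genes passed an adjusted p of 0.05 in limma, and 2 genes in all (0.0184%) did. The edited gene S100a4 did not pass either, with a log2 difference of -1.88 (SE 0.311, adjusted p 0.0731 in limma). It was nonetheless at least 2-fold lower in every pair of a knockout and a control. A gene that does not pass may therefore still differ between the groups. At an unadjusted p under 0.05, limma found 2 of the 8 genes, Tead1 and Wisp1, against 19.1% of all tested genes. Both knockouts lay below both controls for 5 of the 8 genes, Wisp1, Yap1, Tead1, Lats2 and Ankrd1, and above both for 0, against 31.2% and 21.9% of all tested genes. On log2(RPKM + 1), none was 2-fold lower in every pair of a knockout and a control and none 2-fold higher, against 1.73% and 0.267% of all tested genes. On RPKM without the added 1, a comparison chosen after seeing the data, Wisp1 was 2-fold lower in every pair and 0 genes were 2-fold higher, against 3.29% and 0.423% of all tested genes. The median log2 difference of the 8 genes was -0.39, against -0.08 over all tested genes, and 7 of the 8 were below 0, against 55% of all tested genes. An exact two-sided permutation test of 2 lines against 2 cannot go below a p of 0.333. With 1 library a line, the p-values measure only the spread between these libraries, which holds differences between lines as well as technical error. In such bulk samples, fewer cells that use a gene and less of its RNA per cell cannot be told apart.

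Within the groups, Ctgf and Tead1, 2 of the 8 genes, were at least 2-fold lower in the vector control than in the parental line. This compares with 5.19% of all tested genes 2-fold lower there and 8.53% 2-fold apart in either direction. The knockouts were 2-fold apart for none of the 8 genes, against 4.99% of all tested genes. The exon 2 knockout was below the exon 3 knockout for Ctgf, Cyr61 and Wwtr1, that is 3 of 8, against 45.6% of all tested genes.

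**Figure D2:**
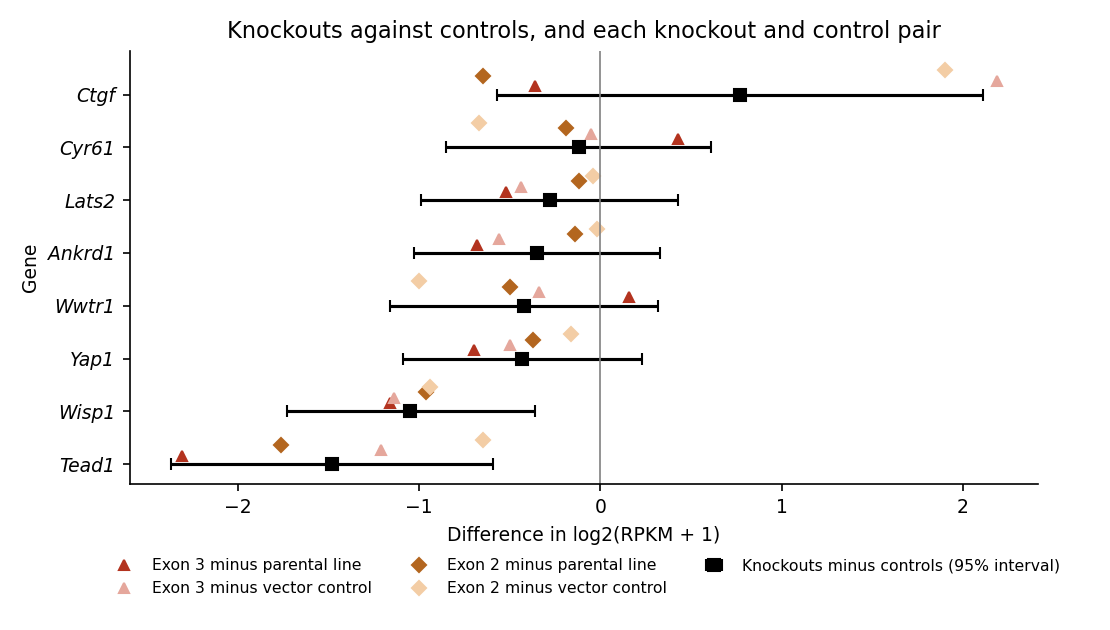
Difference in log2(RPKM + 1) between knockouts and controls for the 8 tested genes (black squares, with the 95% interval from limma) and for each of the 4 knockout and control pairs (colored symbols). The pairs of Wisp1 lie close together, from -1.16 to -0.94, while those of Ctgf run from -0.65 to 2.19.

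Ctgf (chromosome 10 from 24595442 to 24598683, plus strand, GRCm38) encodes connective tissue growth factor, a CCN protein linked to fibrosis and matrix production. It was at 149, 24.6, 116 and 94.5 RPKM, from 4881, 654, 2845 and 2224 reads. The vector control stood apart from the other 3 libraries, and both knockouts lay between the controls. The vector control was below the parental line by -2.55 on the log2 scale, a difference that only 0.846% of tested genes exceeded in size. The difference between knockouts and controls was 0.77 (SE 0.612, 95% interval -0.57 to 2.11, adjusted p 0.506 in limma), which is smaller than the spread between the controls. Its direction rested on the vector control: without that library it was -0.51 (adjusted p 0.413), and without the parental line 2.04 (adjusted p 2.64e-06 in limma, with the lone control assumed to vary as the knockouts do).

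Cyr61 (chromosome 3 from 145646976 to 145649981, minus strand), a CCN protein that promotes adhesion, migration and vessel growth, had another order of levels. Its level was 279, 391, 378 and 244 RPKM. The groups overlapped, with the vector control and the exon 3 knockout high and the parental line and the exon 2 knockout low. The difference between groups was -0.12 (SE 0.331, 95% interval -0.85 to 0.61, adjusted p 0.866 in limma), and it was 0.12 without the vector control and 0.19 without the exon 2 knockout. The ratio of Cyr61 to Ctgf RPKM was uneven across the lines, at 1.87, 15.9, 3.27 and 2.59. Cyr61 made up 62.2%, 89.4%, 75.2% and 70.0% of the summed RPKM of the 6 CCN genes, and Ctgf 33.2%, 5.63%, 23.0% and 27.1%. The sum itself was 449, 437, 503 and 349 RPKM, with overlapping groups.

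Wisp1 (chromosome 15 from 66891320 to 66923201, plus strand), a CCN gene first described as a target of Wnt signaling, had the most even difference of the 8 tested genes over the pairs. It was at 19.9 and 19.6 RPKM in the controls (687 and 550 reads), and at 8.37 and 9.75 RPKM in the knockouts (217 and 242 reads). The controls could not be told apart within counting error, the knockouts could not either, and the groups did not overlap. The knockout mean was 45.8% of the control mean, a log2 difference of -1.05 (SE 0.313, 95% interval -1.73 to -0.36, adjusted p 0.14 in limma). It ranked at position 728 from the lowest among tested genes. After a correction for coding GC content and length the difference was -1.26 (adjusted p 0.256 in limma), and under quantile normalization -0.85 (adjusted p 0.243 in limma). These were the largest and smallest among the alternatives that used all libraries. The study picked Wisp1 from these same libraries, so its direction is not independent evidence.

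Nov (chromosome 15 from 54745702 to 54754039), a CCN gene tied to Notch signaling and growth arrest, was found by 13, 35, 0 and 6 reads. These reads correspond to 0.391, 1.29, 0 and 0.251 RPKM, and the 0 reads allow up to 0.12 RPKM by a limit of 3 reads. Both knockouts lay below both controls. The 95% Poisson intervals of the exon 2 knockout (0.092 to 0.546 RPKM) and the parental line (0.208 to 0.668 RPKM) overlapped, so this pair cannot be told apart at this depth. In the fit without a filter on low genes the log2 difference of Nov was -0.68 (SE 0.265, adjusted p 0.364 in limma).

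Wisp2 (chromosome 2 from 163820861 to 163833146), the CCN protein that lacks the carboxy-terminal module, was found by 11, 15, 9 and 0 reads. The groups overlapped, since the exon 3 knockout at 0.485 RPKM was above the parental line at 0.445. The 0 reads in the exon 2 knockout allow up to 0.169 RPKM. The sixth CCN gene, Wisp3, had 3 reads or fewer in every library, so no difference could be read from it.

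Yap1 (chromosome 9 from 7931999 to 8004596, minus strand) and Wwtr1 (chromosome 3 from 57455649 to 57575910, minus strand) encode the paralogous coactivators that Hippo kinases restrain. Yap1 was at 82.1, 70.9, 50 and 63.4 RPKM. Both knockouts were below both controls and the knockout mean was 74.2% of the control mean, with a log2 difference of -0.43 (SE 0.301, 95% interval -1.09 to 0.23, adjusted p 0.445 in limma). Wwtr1 was at 84.8, 120.2, 95 and 59.5 RPKM. Its groups overlapped, because the exon 3 knockout was above the parental line, and the log2 difference was -0.42 (SE 0.336, 95% interval -1.16 to 0.32, adjusted p 0.509 in limma).

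The balance between the coactivators differed from line to line and not by group. Yap1 RPKM was 0.968 times that of Wwtr1 in the parental line and 1.07 times in the exon 2 knockout, but 0.59 times in the vector control and 0.526 times in the exon 3 knockout. Their summed level was 167 and 191 RPKM in the controls and 145 and 123 RPKM in the knockouts, so the groups did not overlap in the sum. Both knockouts were also below both controls for 31.2% of all tested genes, and the sum was not tested.

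Tead1 (chromosome 7 from 112679318 to 112906807, plus strand), a Tead factor through which Yap1 and Wwtr1 reach DNA, had the largest difference of the 8 tested genes. It was at 33.7, 15.1, 5.98 and 9.27 RPKM, from 1379, 504, 184 and 273 reads. The groups did not overlap, and the Poisson intervals of the exon 2 knockout (8.2 to 10.4 RPKM) and the vector control (13.8 to 16.5 RPKM) did not meet either. The control mean was 24.4 ± 13.1 RPKM and the knockout mean 7.62 ± 2.32 RPKM (SD, n = 2 each), so the knockout mean was 31.2% of the control mean. The log2 difference was -1.48 (SE 0.405, 95% interval -2.37 to -0.59, adjusted p 0.13 in limma) and ranked at position 161 from the lowest of 10871 genes.

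The size of the Tead1 difference depended on which control was used. The vector control was itself below the parental line by -1.10 on the log2 scale, a difference that 6.72% of tested genes exceeded in size. Against the parental line the exon 3 and exon 2 knockouts were at -2.31 and -1.76, and against the vector control at -1.21 and -0.65. Without the vector control the difference was -2.03 (adjusted p 0.000909 in limma) and without the parental line -0.93 (adjusted p 0.21 in limma), where the lone control left is assumed to vary as the knockouts do. A robust prior put the adjusted p of limma at 0.0406 with the same difference, in a fit that called 285 genes in all, and the correction for coding GC content and length gave -1.29 (adjusted p 0.312).

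The other Tead genes had other orders of level. Tead4 was at 18.7, 18.0, 28.6 and 28.4 RPKM, higher in both knockouts, with a log2 difference of 0.61 (SE 0.301, adjusted p 0.292 in limma). Both knockouts were above both controls for 21.9% of all tested genes. Tead3 (22.5, 12.2, 14.9 and 24.9 RPKM) and Tead2 (38.3, 53.9, 47.4 and 56.6 RPKM) overlapped between the groups. The summed RPKM of the 4 Tead genes was 113 and 99.3 in the controls and 97.0 and 119 in the knockouts, so the groups overlapped in the total. Within that total the share of Tead1 was 29.8% and 15.2% in the controls against 6.17% and 7.78% in the knockouts, while Tead4 made up 16.5% and 18.2% against 29.5% and 23.8%. Tead2 was the most abundant Tead gene in every library, Tead1 included.

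**Figure D3:**
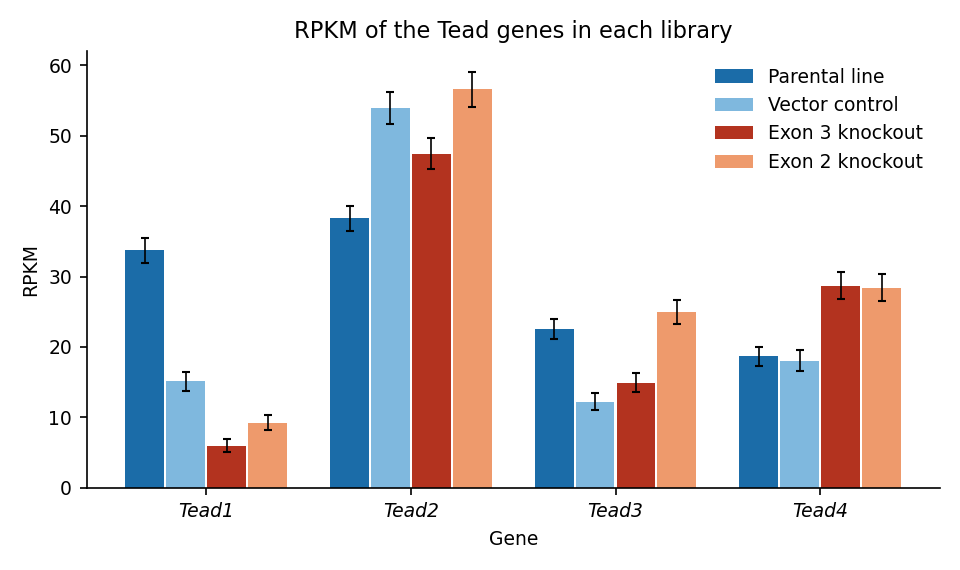
RPKM of the 4 Tead genes in each library, with 95% Poisson intervals of the reads. Tead1 is highest in the parental line (33.7) and lower in both knockouts (5.98 and 9.27) than in the vector control (15.1), and Tead4 is higher in both knockouts (28.6 and 28.4) than in both controls.

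A list of 7 further Tead genes and cofactors (Tead2, Tead3, Tead4 and the Vgll genes, which compete with Yap1 for Tead factors) was examined beside Tead1. Of these, 5 were tested. Limma gave 0 of them an adjusted and 0 an unadjusted p under 0.05, against 0.0184% and 19.1% of all tested genes. Their median log2 difference was 0.19, against -0.08 over all tested genes. After the correction for GC content and length it was -0.02, against 0.05 over all genes so corrected. Vgll4, a repressor of Tead activity, was at 33.8 RPKM in the vector control against 14.8 to 18.9 RPKM in the other libraries. In that library Ctgf was lowest and Cyr61 highest of the 4.

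Lats2 (chromosome 14 from 57689662 to 57758388, minus strand), the kinase that phosphorylates Yap1 and Wwtr1, was at 14.2, 13.4, 9.61 and 13.0 RPKM. The exon 3 knockout was low and the exon 2 knockout was within counting error of the vector control (12.2 to 13.9 against 12.6 to 14.2 RPKM). The log2 difference was -0.28 (SE 0.323, 95% interval -0.99 to 0.43, adjusted p 0.653 in limma), and the groups no longer stood apart after median ratio scaling of the libraries.

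The kinases and regulators upstream of Yap1 were examined as a list of 28 genes, all of which were tested. Limma gave 0 of them an adjusted p under 0.05, and 9 lower and 1 higher gene an unadjusted p under 0.05, against 13.8% lower and 5.32% higher of all tested genes. Both knockouts were below both controls for 16 genes and above both for 4 (Nf2, Amotl2, Ajuba and Btrc), against the 31.2% and 21.9% of all tested genes. The median log2 difference was -0.44, between -0.48 and -0.37 in the 4 pairs. The largest difference in size was that of Amotl2, which was higher in the knockouts by 1.34 (SE 0.341, adjusted p 0.116 in limma). Amotl2 and Ptpn14 are also counted in the list of targets below. Stk3, the kinase that activates the Lats kinases, was at 18.4, 20.3, 5.5 and 9.17 RPKM, a log2 difference of -1.32 (SE 0.342, adjusted p 0.118 in limma). Taok1, which acts upstream of Stk3, was at 14.9, 16.1, 4.83 and 7.39 RPKM, a difference of -1.24 (SE 0.336, adjusted p 0.13 in limma). Lats1 and the Lats cofactors Mob1a and Mob1b, chosen after their values were seen, had differences of -1.14, -0.79 and -1.04 (adjusted p 0.138, 0.2 and 0.173 in limma).

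The correction for coding GC content and length, made for both together, moved the values of this list. Its median coding GC content was 52.3% against 53.1% for all tested genes, and was lower for some of the genes just named, at 43.2% for Stk3, 44.2% for Taok1 and 47.4% for Lats1. After the correction for coding GC content and length the median difference of the list was -0.17, with both knockouts below both controls for 11 of 28 genes against 20.9% of all genes so corrected. The difference of Stk3 was then -0.70, that of Taok1 -0.49 and that of Lats1 -0.52. By contrast the 8 tested genes of the opening list had a median coding GC content of 58.2%, and their median difference was -0.42 after the correction.

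**Figure D4:**
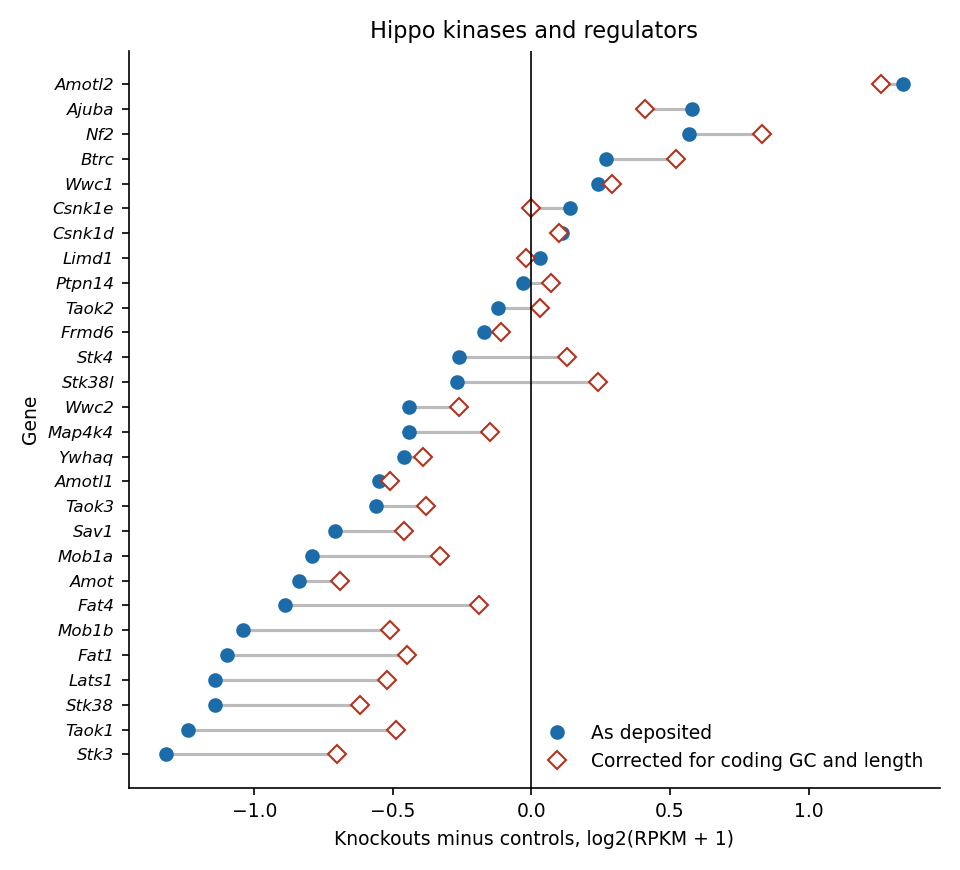
Difference in log2(RPKM + 1) between knockouts and controls for each of 28 Hippo kinases and regulators, as deposited (filled circles) and after correction for coding GC content and length (open diamonds). The median of the list is -0.44 as deposited and -0.17 after the correction.

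Ankrd1 (chromosome 19 from 36111961 to 36120099, minus strand) encodes an ankyrin repeat protein that responds to stretch and is a target of Yap1 and Wwtr1. It was at 88.0, 80.8, 54.4 and 79.5 RPKM. The exon 3 knockout alone was low, and the exon 2 knockout was within counting error of the vector control (75.8 to 83.4 against 77.2 to 84.4 RPKM). The log2 difference was -0.35 (SE 0.311, 95% interval -1.03 to 0.33, adjusted p 0.549 in limma), and was -0.15 after the correction for GC content and length. As for Lats2, the groups overlapped after median ratio scaling and after the GC and length correction. The exon 3 knockout was the lowest library for Wisp1, Yap1, Tead1, Lats2 and Ankrd1, against 33.1% of all tested genes.

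Other targets of Yap1 and Wwtr1 were examined as a list of 18 genes, of which 17 were tested (Igfbp3 was too low). Between knockouts and controls 11 were below 0 and 6 above, and the median log2 difference was -0.03. The median was -0.43 without the vector control, 0.32 without the parental line and -0.28 for the 13 targets with a mean RPKM of at least 5. Limma gave 0 an adjusted p under 0.05 and 2 lower and 2 higher genes an unadjusted one, against 13.8% lower and 5.32% higher of all tested genes. Both knockouts were below both controls for Myof, Asap1, Dock5 and Tgfb2 and above both for Amotl2, Fjx1, Gadd45a and Nuak2, that is 4 and 4 of 17, against 31.2% and 21.9% of all tested genes. Amotl2, an angiomotin that binds Yap1, was at 56.4, 32.3, 96.6 and 124 RPKM, a difference of 1.34 (SE 0.341, adjusted p 0.116 in limma). Nuak2, a kinase of the AMPK family, was at 9.19, 4.61, 17 and 16.5 RPKM, a difference of 1.23 (SE 0.363, adjusted p 0.139 in limma). Ccdc80, a secreted matrix protein, was at 39.8, 5.86, 10.2 and 1.33 RPKM, a difference of -1.71 (SE 0.789, adjusted p 0.264 in limma) with overlapping groups. The study named Tgfb2 from these same data, in a list of affected pathways that gives no direction. Its place among the 4 lower genes is therefore not independent evidence.

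The same targets were then compared between the controls. The vector control was below the parental line for 14 of the 17 targets, against 36.6% of all tested genes, and at least 2-fold below it on log2(RPKM + 1) for 4, against 5.19%. On RPKM without the added 1 it was 2-fold below for 7, against 6.77% of all tested genes, with Axl, Fjx1 and Rbms3 added. The first 4 genes, of which all but Ccdc80 were chosen after their values were seen, were Ccdc80 (39.8 and 5.86 RPKM), Nt5e (10.7 and 2.8 RPKM), Arhgef17 (22.4 and 8.71 RPKM) and Crim1 (39.4 and 19.2 RPKM), and none of the 17 was 2-fold above it on log2(RPKM + 1). The median log2 difference of the vector control from the parental line was -0.79 for the targets and 0.16 for all tested genes, and -0.65 and 0.06 after the correction for GC content and length. Ctgf was at -2.55 in this comparison, while Cyr61 was higher in the vector control by 0.48 and Ankrd1 and Lats2 were at -0.12 and -0.08. Each line has 1 library, so this difference has no replicate check. Any part of the vector or of selection in it was not tested. Mesenchymal and epithelial markers differed between the same libraries, with Col1a1 at 670.3 and 6.93 RPKM and Krt18 at 60.2 and 6.1 RPKM, and their part in the result was not tested.

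**Figure D5:**
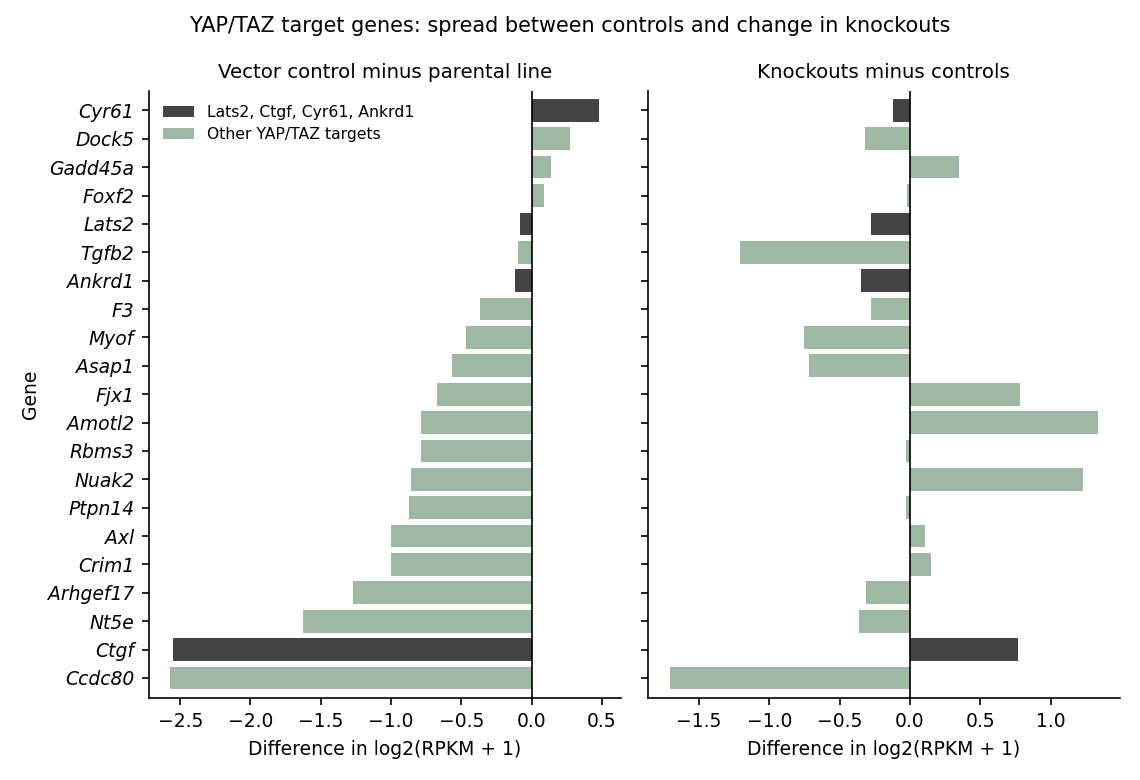
Difference in log2(RPKM + 1) of the vector control from the parental line (left) and between knockouts and controls (right) for 17 tested Yap1 and Wwtr1 targets and for Ctgf, Cyr61, Ankrd1 and Lats2 (dark bars). On the left 14 of the 17 targets are below 0, with a median of -0.79, and on the right the median is -0.03.

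Receptors through which CCN proteins act were examined last, as a list of 14 genes of which 11 were tested. Limma gave 0 an adjusted p under 0.05 and 3 an unadjusted one, all lower: Itgav (-1.26, SE 0.341, adjusted p 0.128), Itgb1 (-0.98, SE 0.287, adjusted p 0.138) and Lrp6 (-0.91, SE 0.342, adjusted p 0.197). The share over all tested genes was 13.8% lower. After the correction for GC content and length the differences of Itgav, Itgb1 and Lrp6 were -0.81, -0.23 and -0.35. Itgav, the alpha-v integrin chain to which Cyr61 and Ctgf bind, was at 59.1, 34.3, 16.8 and 19.7 RPKM. Both knockouts were below both controls for Itgav, Itgb1, Lrp6 and Notch1 and above both for Itgb5, Itga5 and Sdc4, that is 4 and 3 of 11, against 31.2% and 21.9% of all tested genes. The median log2 difference was -0.58, -0.23 after the correction for GC content and length and 0.01 without the parental line, and the vector control was below the parental line for 9 of the 11 genes, against 36.6% of all tested genes. Itgb1, like Wisp1, was chosen by the study on these data.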

How the data were processed

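RNA-seq of 4 mouse mammary tumor cell lines, 1 library each, was analysed from a table of RPKM values that the authors deposited, with 1 column per library matched by the library name in the labels (0 columns were left unmatched). The submitters' processing notes name CASAVA 1.8, GSNAP and the GRCm38 build, and the gene model and counting rule behind the RPKM values are not given in the sources used here. For 8582 of the 15405 genes above 0, an annotated GENCODE M21 length gave whole reads, within 0.001 reads, in all 4 libraries. For the others, Yap1, Lats2 and Wisp2 included, the length was inferred as the smallest that gave whole reads, so that they came out whole is no check, and their reads and intervals rest on that length. Gene locations are from GENCODE M21 (GRCm38).

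Values were analysed as log2(RPKM + 1), with a pseudocount of 1, for genes with mean RPKM of at least 1. The test was limma 3.58.1 (R 4.3.3) with an intensity trend, knockouts against controls without covariates, Benjamini-Hochberg adjusted over all tested genes with a threshold of 0.05. SE and 95% intervals are from limma, which was also run on simulated data with changes of known size. The simulated libraries of a group differed only by counting error and a small added variation. That run therefore does not show how limma performs on single libraries of different lines. Other calculations used Python 3.11.15, numpy 2.4.6, pandas 2.3.3 and scipy 1.17.1. The GC and length correction removed from each library's deviation a spline (5 degrees of freedom each) of coding GC content and log2 coding length. Poisson intervals and the limit of 3 reads cover counting error only. Groups came from the sample titles, and replicate numbers follow the order of deposition.

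The 10 genes, the lists and the tests were chosen with earlier results of these data known. Named from each list were genes 2-fold apart in all 4 pairs (on log2(RPKM + 1) there were 0, and on RPKM Stk3, Taok1 and Lats1) and the 3 with the largest difference, and other list genes were chosen after their values were seen.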

Additional observations from a re-analysis of the deposited data

How the results depend on the processing

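The alternatives, but for the one named as chosen later, were set with the lists. The count of genes called by limma was 2, and it was 1 with a pseudocount of 0.1 and with quantile normalization, 0 with median ratio scaling, with no filter, after the GC and length correction and with voom on whole reads, 32 with a filter at a mean RPKM of at least 5, 285 with a robust prior, and 3 to 788 when a library was left out. Of the 8 tested genes limma called 0, but 1 (Tead1) with a robust prior and 0 to 1 when a library was left out (Tead1 without the vector control, Ctgf without the parental line). The count of genes lower in every pair was 5, 3 after median ratio scaling (Wisp1, Yap1 and Tead1), 4 after the GC and length correction (Wwtr1 in, Lats2 and Ankrd1 out), 5 after quantile normalization (Wwtr1 in, Lats2 out) and 5 to 7 when a library was left out, and that of genes higher in every pair was 0, or 0 to 1 when a library was left out. On log2(RPKM + 1) none was 2-fold lower in every pair, against 1 (Wisp1) on RPKM without a pseudocount, an alternative chosen after seeing the data, 1 (Wisp1) after the GC and length correction and 0 to 2 when a library was left out, and 2-fold higher genes numbered 0, or 0 to 1. The median difference of all genes, -0.08, became 0.04 under quantile normalization and 0.05 when corrected for GC and length. For the Hippo list it was -0.44, and -0.35 after median ratio scaling, -0.23 after quantile normalization, -0.17 after the GC and length correction and -0.43 to -0.33 when a library was left out. The same leave-out ranges were -0.15 to 0.56 for the Tead list, -0.43 to 0.32 for the targets and -0.99 to 0.01 for the receptors.

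Among single genes, 3 values changed direction: Ctgf was at -0.51 and Cyr61 at 0.12 without the vector control, and Cyr61 at 0.19 without the exon 2 knockout. Ctgf was at 2.04 without the parental line and Tead1 at -2.03 without the vector control, both called, and Tead1 at -1.48 was called with a robust prior. All 8 tested genes kept their direction in the 9 alternatives that used all 4 libraries. The causes were not tested. No paired analysis was possible because the labels give no replicate numbers that the groups share. At this depth Nov, Wisp2 and Wisp3 rest on 35 reads or fewer a library.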
